A study of Mus musculus with 16 samples.

Results

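The proteasome is the large protease complex that degrades proteins tagged with ubiquitin. Its genes were taken from the deposited mouse polyA read tables as every symbol that starts with Psm, continues with a letter from a to g and ends in a number. This rule found 48 of 43629 genes. Of them, 45 passed a filter of at least 1 RPM, which scales reads to library size, in at least 1 group, as did 13197 genes in all, and 45 were matched by symbol in the deposited FPKM table, whose unit scales fragments to transcript length and library size, of 24544 genes. The symbols hold subunits of the core particle (Psma, Psmb), of the regulatory cap (Psmc, Psmd), activators (Psme), an inhibitor (Psmf1) and assembly chaperones (Psmg, with Psmd5, Psmd9 and Psmd10).

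RNA was sequenced from exosomes, small membrane vesicles that cells secrete, and from the cells that released them. The cells were the stromal lines AFT024 and BFC012, both derived from the fetal liver of C57BL/6 mice at 14.5 dpc (days post coitum). Hematopoietic stem and progenitor cells are supported by AFT024 and not by BFC012, per the labels. The 4 groups used here are the exosomes of AFT024, the exosomes of BFC012, the cells of AFT024 and the cells of BFC012, all as polyA RNA without a treatment named in the labels. Each kind of support is represented by 1 line, so a difference between the lines cannot be told apart from any other difference between AFT024 and BFC012. The labels list 2 samples per group, but exosome RNA was pooled, split for sequencing and merged, and the tables hold 1 merged value per group. Differences below are thus without any measure of replicate spread, and p-values were not calculated.

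The core particle is a barrel of stacked rings: outer alpha rings, which gate the entrance, and inner beta rings, which carry the proteolytic sites. The cap recognises ubiquitin, removes it, unfolds the substrate with a ring of ATPases and feeds it into the core. Cells that respond to interferon can exchange the standard catalytic beta subunits for immunoproteasome forms, whose products are used for antigen presentation, and dedicated chaperones assemble core and cap before they leave the finished complex.

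Total depth was 9038471 reads in the exosomes of AFT024 and 16344350 in those of BFC012, against 39385534 in the cells of AFT024 and 35874383 in those of BFC012. Mesenchymal transcripts were present in the cells of both lines, with 8 or 9 of 9 markers detected (1 read or more) and summed levels of 11736 RPM in AFT024 cells and 9070 RPM in BFC012 cells. Not all markers were expressed: Thy1 had 1 read in AFT024 cells and 0 in BFC012 cells, and Col1a2 had 1717 and 12. Fn1 had the most reads, with 157662 of 462241 in AFT024 cells and 184478 of 325391 in BFC012 cells. The 4 hepatocyte markers together stayed at or below 1.12 RPM in every group, and the 7 hematopoietic markers summed to 22.3 RPM in AFT024 exosomes, 14.3 in BFC012 exosomes, 110 in AFT024 cells and 121 in BFC012 cells. Nearly all of that was Cd34, a surface marker of progenitor and also of some stromal cells, with 199 reads in AFT024 exosomes, 232 in BFC012 exosomes, 4323 in AFT024 cells and 4336 in BFC012 cells, while Ptprc, the pan-leukocyte marker, had 1 or 2 reads in each. The 4 epithelial markers summed to 42 reads in AFT024 exosomes, 113 in BFC012 exosomes, 46 in AFT024 cells and 786 in BFC012 cells. Most of these reads in BFC012 were Cdh1, an epithelial adhesion gene, with 103 in exosomes and 756 in cells. In AFT024, Cdh1 had 6 reads in exosomes and 3 in cells, and most of the sum came from the other markers. The higher epithelial sum of BFC012 thus rests on 1 gene.

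The proteasome genes were placed in the annotation of build GRCm38 and lie on many chromosomes. Some lie close together: Psmb5 (chr14:54614119-54618022) and Psmb11 (chr14:54621433-54629556) are separated by 3410 bases, Psme1 (chr14:55578123-55581529) and Psme2 (chr14:55587441-55591113) by 5911 bases, and Psmb9 (chr17:34181987-34187764) and Psmb8 (chr17:34197721-34201454) by 9956 bases. RefSeq promoter windows (GRCm38.p6, 250 bases before to 50 after the start) were matched for 40 of the 48 genes. Nfe2l1 and Nfe2l2, the transcription factors known to drive proteasome genes, bind antioxidant response elements, whose core was searched on both strands as TGACNNNGC (N being any base). It was present in 6 of the 40 windows (15%, in Psmb5, Psmb6, Psmc6, Psmd9, Psmd12 and Psme4), against 12.5% of 26742 windows of all genes. The copies with at least 15 bases on either side before the start are shown because they are the only ones upstream of a start by that margin, with the core in capitals and the strand of the gene.
Psmb5 (chr14:54618019-54618057, minus strand): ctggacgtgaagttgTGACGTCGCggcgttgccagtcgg
Psmc6 (chr14:45329582-45329620, plus strand, core on the opposite strand): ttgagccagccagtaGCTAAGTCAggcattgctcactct
Psmd9 (chr5:123228144-123228182, plus strand): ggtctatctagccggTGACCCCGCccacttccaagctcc
The CCAAT box, CCAAT on either strand, was present in 14 windows (35%), against 37.9% of all windows. The interferon response core, GAAA repeated after 2 bases of any kind, was present in 5 windows (12.5%, in Psmb3, Psmd4, Psmd9, Psme1 and Psmg4), against 3.49% of all windows. These matches describe letters in the windows and show no binding.

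The cells of both lines expressed nearly the whole standard proteasome. Levels are given in FPKM, which is per length of transcript. The 45 genes of the FPKM table had a median of 27.7 FPKM in AFT024 exosomes against 127 FPKM in AFT024 cells, and 37.4 FPKM in BFC012 exosomes against 116 FPKM in BFC012 cells. FPKM was lower in exosomes for genes in general. With 1 added, the median log2 ratio of all genes was -1.11 in AFT024 and -0.80 in BFC012. Not all of the gap is thus particular to proteasome genes. As a share of all reads, the 48 genes took 0.331% in AFT024 exosomes and 0.807% in AFT024 cells, and 0.323% in BFC012 exosomes and 0.714% in BFC012 cells. Alpha ring genes had a median of 34.5 FPKM in AFT024 exosomes, 39.4 in BFC012 exosomes, 244 in AFT024 cells and 204 in BFC012 cells. Cap subunits (17 genes) had a median of 23.9 FPKM in AFT024 exosomes, 37.4 in BFC012 exosomes, 141 in AFT024 cells and 119 in BFC012 cells. Standard catalytic subunits (Psmb5, Psmb6 and Psmb7) lay close together, at 52.8 to 63.5 FPKM in AFT024 exosomes, 37.9 to 64.9 in BFC012 exosomes, 207 to 326 in AFT024 cells and 160 to 261 in BFC012 cells.

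Psmb4, a structural beta subunit, had the highest FPKM of the family in each group: 547 in AFT024 exosomes, 364 in BFC012 exosomes, 827 in AFT024 cells and 537 in BFC012 cells. In reads, which are not per length, Psmd2 (a large scaffold subunit of the cap base) exceeded Psmb4 in BFC012 exosomes and in the cells of both lines, with 5864 reads against 2461 in BFC012 exosomes, 21873 against 10350 in AFT024 cells and 19403 against 5954 in BFC012 cells. The length that reads and FPKM together imply for Psmb4 was 318 nt in AFT024 cells, while its annotated transcripts have a median of 1183 nt, so its FPKM ranks higher than its reads per annotated length would. Psme4, the largest activator, and Psmd9, a base assembly chaperone, were the lowest of the standard genes in cells, Psmd9 at 23.4 FPKM in the cells of AFT024 and 22.4 in those of BFC012, and Psme4 at 27.9 FPKM in BFC012 cells.

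**Figure D1:**
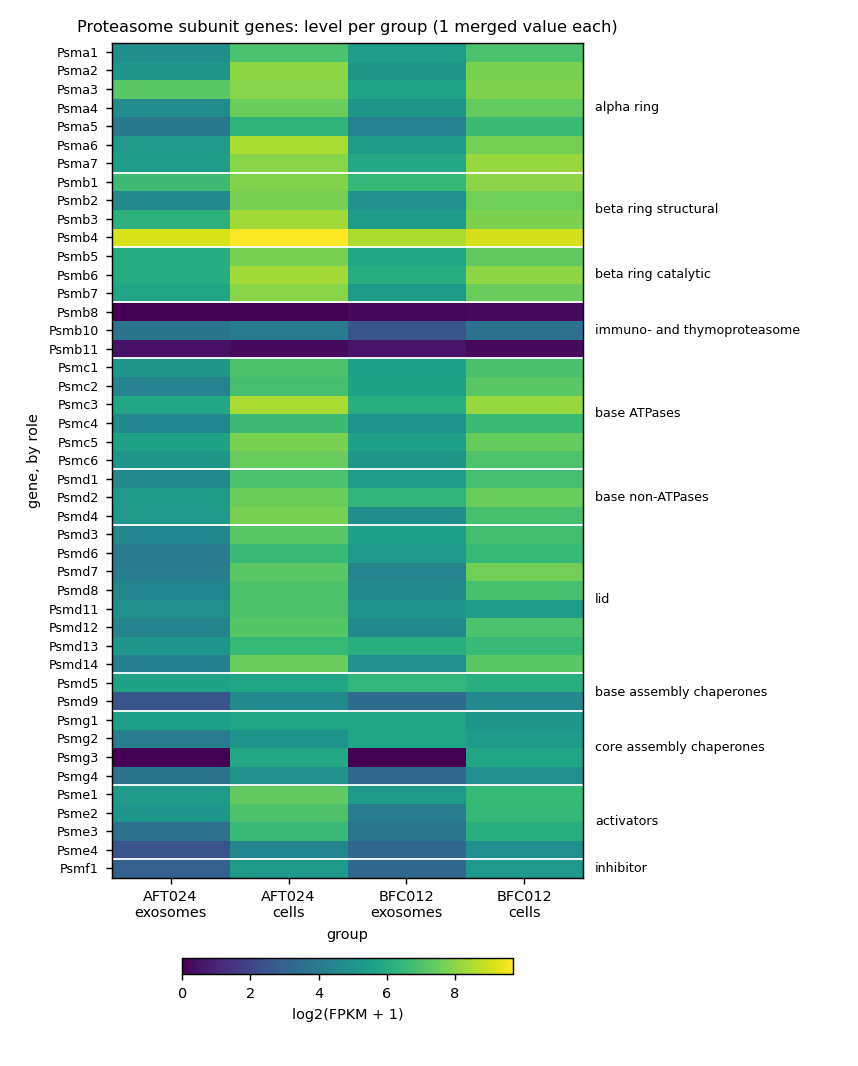
Level of the 45 proteasome genes in the FPKM table (rows, by role) in each group (columns, 1 merged value each), as log2(FPKM + 1) by colour. The cell columns are brighter than the exosome columns for most rows, Psmb4 is the brightest row in each column, and Psmb8 and Psmb11 stay near 0. The median gene of the FPKM table is also lower in exosomes.

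Of the immunoproteasome and thymoproteasome catalytic subunits, Psmb10 alone had more than 26 reads in any group. Psmb8, an immunoproteasome catalytic subunit, had 0 reads in AFT024 exosomes, 7 in BFC012 exosomes, 10 in AFT024 cells and 12 in BFC012 cells. Psmb9, another immunoproteasome catalytic subunit, had 2, 15, 5 and 21 reads in the same order. Both were below the filter in every group, and some of their reads may not be their own, since exons of Psmb9 overlap Tap1 and exons of Psmb8 overlap Gm20496 on the other strand and the strandedness of the counting is not given in the sources used here. Psma8, the testis form of an alpha subunit, had 0 reads in every group, which allows up to 0.332 RPM in AFT024 exosomes, 0.184 in BFC012 exosomes, 0.0762 in AFT024 cells and 0.0836 in BFC012 cells (3 reads). Psmb10, the third immunoproteasome catalytic subunit, had 12.2 FPKM in the exosomes of AFT024 against 14.9 in its cells, and 4.78 in BFC012 exosomes against 11.6 in BFC012 cells. Psmb11, the catalytic subunit of the thymoproteasome of thymic epithelium, had 18 reads in AFT024 exosomes against 13 in AFT024 cells, and 26 in BFC012 exosomes against 7 in BFC012 cells, and never exceeded 0.482 FPKM.

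Most proteasome genes were lower in exosomes than in cells of the same line. Ratios were taken from whole reads scaled by median-of-ratios size factors, with an exact Clopper-Pearson 95% interval that covers counting error only. Of the 45 genes kept, 21 were at least 2-fold lower in AFT024 exosomes than in AFT024 cells, a change made by 28.1% of all genes kept, and 3 were at least 2-fold higher, against 22.6% of all genes. In BFC012, 19 were at least 2-fold lower in exosomes (26.3% of all genes) and 4 at least 2-fold higher (24.4% of all genes). The higher genes of both lines include Psmb11, which passed the filter only through the exosome groups. The interval lay below 1 for 35 genes in AFT024 (45.4% of all genes) and 38 in BFC012 (43.4% of all genes), and above 1 for 7 in AFT024 (35.6%) and 6 in BFC012 (39.5%). The median ratio of the 45 genes was 0.506 in AFT024 and 0.597 in BFC012, while that of all genes kept was 0.859 and 0.956 in the same order. In bulk RNA of this kind, fewer cells or vesicles with a transcript and less of it in each cannot be told apart.

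Scaling sets where a ratio of 1 lies. Scaled by library total, every ratio of exosomes against cells is multiplied by 0.747 in AFT024 and 0.706 in BFC012, and in the deposited FPKM (with 1 added) the median gene moved by -1.11 on the log2 scale in AFT024 and by -0.80 in BFC012. For 43 of the 45 genes a ratio could also be taken in the deposited FPKM, Psmd10 and Psmg3 being without one. Under median-of-ratios, upper-quartile and library-total scaling and in FPKM, 34 of the 43 were lower in exosomes in AFT024 and 37 in BFC012, and 34 were lower in both lines under all 4. Library total and FPKM move ratios downward, so a gene already lower under median-of-ratios was bound, or nearly bound, to stay lower under them. The share of all genes lower under all 4 was not calculated.

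The alpha ring was lower as a whole. Its 7 genes ranged from 0.316 (Psma6) to 0.701 (Psma3) in AFT024 exosomes against cells and from 0.313 (Psma2) to 0.715 (Psma1) in BFC012, all 14 intervals lay below 1, and 5 genes in AFT024 and 6 in BFC012 passed 2-fold. Psma2 had 541 reads in AFT024 exosomes against 9556 in AFT024 cells, and 713 in BFC012 exosomes against 7080 in BFC012 cells. Its ratio was 0.330 (95% interval 0.302 to 0.360) in AFT024 and 0.313 (0.289 to 0.338) in BFC012. Psma6 had 618 reads in AFT024 exosomes and 11423 in AFT024 cells, a ratio of 0.316 (0.291 to 0.342), and 945 reads in BFC012 exosomes and 5989 in BFC012 cells, a ratio of 0.490 (0.457 to 0.525).

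The beta ring was less even. Among the structural subunits, Psmb2 had 333 reads in AFT024 exosomes against 6552 in AFT024 cells and 575 in BFC012 exosomes against 5495 in BFC012 cells, with ratios of 0.297 (0.265 to 0.331) and 0.325 (0.298 to 0.354). Psmb3 was at 0.597 (0.551 to 0.645) in AFT024 and 0.359 (0.326 to 0.394) in BFC012. Psmb4 went the other way in scaled reads, with 2583 reads in AFT024 exosomes against 10350 in AFT024 cells, a ratio of 1.46 (1.39 to 1.52), and 2461 reads in BFC012 exosomes against 5954 in BFC012 cells, a ratio of 1.28 (1.22 to 1.35). Its direction turned in FPKM, where the ratio was 0.661 in AFT024 and 0.678 in BFC012, and in BFC012 also under library-total scaling (0.907). All 3 catalytic subunits were lower in exosomes of both lines. Psmb5, the chymotrypsin-like subunit and the main target of proteasome inhibitor drugs, had 686 reads in AFT024 exosomes against 5171 in AFT024 cells, a ratio of 0.774 (0.714 to 0.838), and 835 in BFC012 exosomes against 3691 in BFC012 cells, a ratio of 0.703 (0.651 to 0.758). Psmb6, the caspase-like subunit, was at 0.497 (0.462 to 0.534) in AFT024 and 0.495 (0.464 to 0.527) in BFC012. Psmb7, the trypsin-like subunit, was at 0.522 (0.489 to 0.556) in AFT024 and 0.407 (0.381 to 0.436) in BFC012. Exons of Psmb5 overlap Mir686 and exons of Psmb7 overlap Nek6, and those of Psma4, Psma5, Psmc3, Psmd1, Psmd3 and Psmg3 also overlap another annotated gene.

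In the cap, the 6 ATPases of the base (Psmc1 to Psmc6), which unfold substrates, were lower in exosomes of both lines, with ratios of 0.405 (Psmc3) to 0.699 (Psmc1) in AFT024 and 0.480 (Psmc3) to 0.780 (Psmc1) in BFC012. Of the 8 lid subunits, 7 were at least 2-fold lower in AFT024 exosomes and 4 in BFC012 exosomes. Psmd7, a lid subunit that pairs with the deubiquitinase Psmd14, had the lowest ratio of all 45 genes in both lines. It had 460 reads in AFT024 exosomes against 9962 in AFT024 cells, and 793 in BFC012 exosomes against 11699 in BFC012 cells. Its ratios were 0.269 (0.245 to 0.296) in AFT024 and 0.211 (0.196 to 0.226) in BFC012. Psmd14 itself, which removes ubiquitin chains, was at 0.351 (0.320 to 0.385) in AFT024 and 0.385 (0.356 to 0.415) in BFC012. Psmd4, a ubiquitin receptor, was at 0.373 (0.346 to 0.403) and 0.386 (0.356 to 0.417) in the same order. Psmd13 stood apart from the other lid genes, with 771 reads in AFT024 exosomes against 4536 in AFT024 cells, a ratio of 0.992 (0.918 to 1.07), and 2053 reads in BFC012 exosomes against 4347 in BFC012 cells, a ratio of 1.47 (1.39 to 1.55). In FPKM its ratio was 0.372 in AFT024 and 0.717 in BFC012, and its exons overlap Sirt3 on the other strand.

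**Figure D2:**
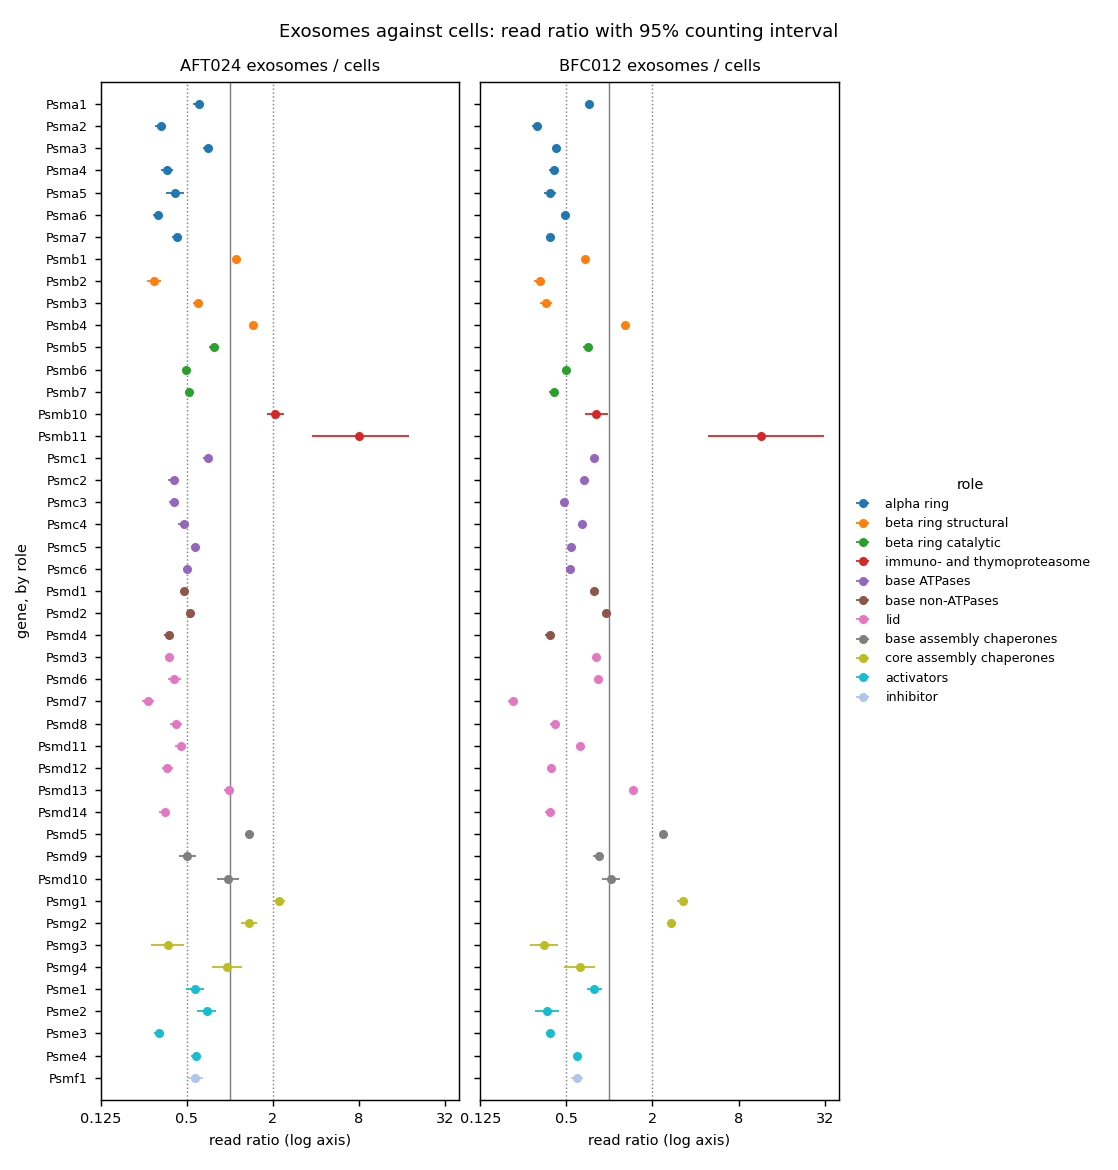
Read ratio of exosomes against cells (horizontal log axis; solid line at 1, dotted lines at 0.5 and 2) for the 45 proteasome genes kept, by role, in AFT024 (left) and BFC012 (right), with 95% counting intervals; each group is 1 merged value. Most points lie left of 1 in both panels, while Psmb11, Psmg1, Psmg2, Psmd5 and Psmb4 lie right of 1 in both.

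The 7 assembly chaperones had a median ratio of 0.971 in AFT024 and 1.02 in BFC012, above the medians of core and cap. In AFT024 exosomes 1 was at least 2-fold higher (22.6% of all genes) and 1, Psmg3, at least 2-fold lower (28.1%), and in BFC012 exosomes 3 were higher (24.4%) and 1, again Psmg3, lower (26.3%). Set against these shares, 1 of 7 is fewer in each case and 3 of 7 is more, on a small list. Psmg1, which with Psmg2 forms the dimer that guides alpha ring assembly, had 650 reads in AFT024 exosomes against 1710 in AFT024 cells, and 1090 in BFC012 exosomes against 1043 in BFC012 cells. The exosome ratio of Psmg1 was 2.22 in AFT024 (2.02 to 2.43) and 3.25 in BFC012 (2.98 to 3.54), and in FPKM it was 0.866 in AFT024 and 1.55 in BFC012, so the direction in AFT024 depends on the scaling. Its partner Psmg2 had 307 reads in AFT024 exosomes against 1319 in AFT024 cells, a ratio of 1.36 (1.20 to 1.54), and 1290 reads in BFC012 exosomes against 1478 in BFC012 cells, a ratio of 2.71 (2.52 to 2.92). In FPKM the ratio of Psmg2 was 0.521 in AFT024 and 1.36 in BFC012.

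Psmg3, which forms the other core chaperone dimer with Psmg4, was low in exosomes in reads, with 60 in AFT024 exosomes against 948 in AFT024 cells, a ratio of 0.369 (0.280 to 0.480), and 94 in BFC012 exosomes against 834 in BFC012 cells, a ratio of 0.350 (0.280 to 0.434). It is listed at 0 FPKM in both exosome groups despite these reads, and at 56.2 FPKM in the cells of AFT024 and 52.4 FPKM in those of BFC012. Psmg4 was at 0.964 (0.751 to 1.22) in AFT024 and 0.621 (0.484 to 0.789) in BFC012. Among the chaperones of the base, Psmd5 had 1045 reads in AFT024 exosomes against 4445 in AFT024 cells and 2797 in BFC012 exosomes against 3642 in BFC012 cells. Its ratio was 1.37 (1.28 to 1.47) in AFT024, where FPKM gave 0.946, and 2.39 (2.27 to 2.51) in BFC012, where FPKM gave 1.29. Psmd10 (gankyrin) was near 1 in both lines, at 0.971 (0.811 to 1.16) in AFT024 and 1.02 (0.885 to 1.18) in BFC012, and Psmd9 was at 0.506 (0.441 to 0.578) and 0.844 (0.773 to 0.921) in the same order.

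All 4 activators were lower in exosomes of both lines. Psme1 and Psme2, the interferon-inducible subunits of the PA28 activator, were at 0.573 (0.491 to 0.665) and 0.692 (0.592 to 0.805) in AFT024, and at 0.784 (0.691 to 0.887) and 0.367 (0.302 to 0.444) in BFC012. Exons of Psme1 overlap Emc9 on the other strand. Psme3, the nuclear PA28 subunit, had 608 reads in AFT024 exosomes against 11108 in AFT024 cells, a ratio of 0.319 (0.294 to 0.347), and 911 in BFC012 exosomes against 7374 in BFC012 cells, a ratio of 0.384 (0.358 to 0.411). Psme4 was at 0.582 (0.536 to 0.631) in AFT024 and 0.597 (0.564 to 0.631) in BFC012, and the inhibitor Psmf1 at 0.574 (0.508 to 0.648) and 0.595 (0.539 to 0.656).

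Psmb10 and Psmb11 were the immunoproteasome and thymoproteasome catalytic subunits that passed the filter. Psmb10 had 287 reads in AFT024 exosomes against 803 in AFT024 cells, a ratio of 2.09 (1.82 to 2.39), but 152 in BFC012 exosomes against 582 in BFC012 cells, a ratio of 0.812 (0.674 to 0.972). The AFT024 ratio was 0.814 in FPKM, so its direction depends on the scaling. Psmb11 was at 8.08 (3.74 to 17.9) in AFT024 and 11.5 (4.88 to 31.5) in BFC012. It passed the filter only through the exosome groups, so that its ratio had to be high, and its read numbers are small.

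The ratios of exosomes against cells varied together in the 2 lines. Over the 45 genes, the log2 ratio in AFT024 and that in BFC012, which share no group, had a Spearman rho of 0.70 and a Pearson r of 0.85, against a rho of 0.77 and an r of 0.75 over all 13197 genes kept. Without Psmb11, the farthest point, rho was 0.68 and r was 0.77 over 44 genes. Both lines were at least 2-fold lower in exosomes for 15 genes (18.4% of all genes) and at least 2-fold higher for 2, Psmb11 and Psmg1 (16.9% of all genes). Of these 2, Psmb11 passed the filter only through the exosome groups, so that its ratio had to be high. The interval was below 1 in both lines for 35 genes, against 35.1% of all genes.

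**Figure D3:**
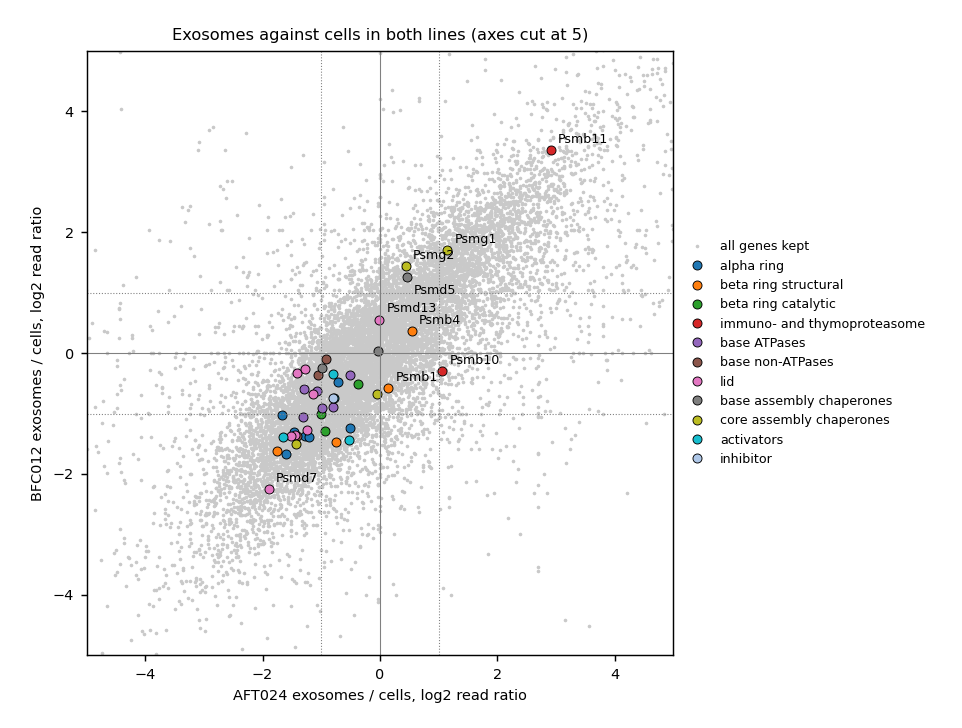
Log2 read ratio of exosomes against cells in AFT024 (horizontal) and BFC012 (vertical) for all 13197 genes kept (grey) and the 45 proteasome genes (coloured by role), with dotted lines at 2-fold. Proteasome genes gather at the lower left of the grey cloud, with Psmd7 lowest and Psmb11 and Psmg1 beyond 2-fold at the upper right.

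In scaled reads, core and cap differed in which line had the lower exosome ratio. The 14 standard core subunits had a median ratio of 0.509 in AFT024 and 0.415 in BFC012, and the 17 cap subunits 0.421 in AFT024 and 0.626 in BFC012. At least 2-fold lower were 7 core and 12 cap subunits in AFT024, and 10 core and 6 cap subunits in BFC012. The ratio of AFT024 lay above that of BFC012 with intervals apart for 8 of the 45 genes (18.1% of all genes) and below it for 17 (29.3% of all genes). In the core these numbers were 5 above and 2 below, and in the cap 1 above and 9 below. Psma3, Psmb1, Psmb3, Psmb4 and Psmb7 were the core genes above, and Psmd7 the cap gene above. Psmd3 and Psmd6 of the lid showed the widest gap below, with Psmd3 at 0.376 (0.351 to 0.402) in AFT024 and 0.799 (0.764 to 0.836) in BFC012, and Psmd6 at 0.410 (0.368 to 0.456) and 0.835 (0.784 to 0.889). In FPKM the core did not show this: its median ratio was 0.202 in AFT024 and 0.210 in BFC012, and 11 of its 14 genes had the lower ratio in AFT024, as did 16 of the 17 cap genes, whose medians were 0.180 in AFT024 and 0.326 in BFC012. With 1 value per group these differences could not be tested.

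Between the cells of the lines, none of the 45 proteasome genes kept differed by 2-fold. Counts were 0 of 45 at least 2-fold higher in AFT024 cells (11.2% of all genes) and 0 at least 2-fold lower (8.94% of all genes). The intervals lay above 1 for 30 genes (38.8% of all genes) and below 1 for 8 (38.5%), with a median ratio of 1.14 against 0.995 over all genes kept. The highest ratio was that of Psmd4, with 11031 reads in AFT024 cells against 5677 in BFC012 cells, at 1.81 (1.75 to 1.87). Psma6 followed at 1.78 (1.72 to 1.83), Psmb11 at 1.73 with a wide interval (0.641 to 5.12), Psmb4 at 1.62 (1.57 to 1.67) and Psmg1 at 1.53 (1.41 to 1.65). The lowest were Psme4 at 0.763 (0.738 to 0.788), Psmc2 at 0.781 (0.759 to 0.804), Psmd7 at 0.793 (0.772 to 0.814), Psmg2 at 0.831 (0.771 to 0.895) and Psma5 at 0.862 (0.820 to 0.905). All 3 standard catalytic subunits were higher in AFT024 cells, at 1.30 (1.25 to 1.36) for Psmb5, 1.26 (1.22 to 1.30) for Psmb6 and 1.44 (1.40 to 1.49) for Psmb7. Psme1, Psme2 and Psme3 were at 1.42 (1.33 to 1.53), 1.44 (1.33 to 1.56) and 1.40 (1.36 to 1.44), and Psmb10 at 1.28 (1.15 to 1.43). Of the 44 genes with an FPKM ratio here, 34 were higher and 8 lower in AFT024 cells under all 4 scalings, the exceptions being Psma3 and Psmd5. The read scalings hardly differed between the cells, with multipliers of 0.999 for upper quartile and 0.979 for library total. The share of all genes whose direction held was not calculated.

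Between the exosomes of the lines, the intervals of all 3 catalytic and of 3 of the 4 structural beta ring genes lay above 1 in AFT024 against BFC012, the other being Psmb2 at 1.01 (0.882 to 1.16). The 17 cap genes went both ways, with a median of 0.985, 5 intervals above 1 and 7 below. Of the 45 genes, 3 were at least 2-fold higher in AFT024 exosomes (16.2% of all genes) and 2 at least 2-fold lower (15.7% of all genes), and the intervals lay above 1 for 18 (31.8%) and below 1 for 12 (38.4%). The median ratio was 1.06, against 0.963 over all genes kept. Psmb10 had 287 reads in AFT024 exosomes against 152 in BFC012 exosomes, a ratio of 3.30 (2.70 to 4.04). Psme2 had 189 reads against 122, a ratio of 2.71 (2.14 to 3.43), and Psmb3 had 698 against 486, a ratio of 2.51 (2.23 to 2.82). Psmb7 was at 1.85 (1.69 to 2.02), Psmb4 at 1.83 (1.74 to 1.94), Psmb5 at 1.44 (1.30 to 1.59) and Psmb6 at 1.27 (1.16 to 1.39). The FPKM ratio of Psmb6 was 0.979. Psmb11 was at 1.21 with an interval across 1 (0.625 to 2.29). The highest cap genes were Psmd4 at 1.75 (1.57 to 1.95) and Psmc5 at 1.37 (1.27 to 1.49).

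The 2 genes at least 2-fold lower in AFT024 exosomes were Psmg2, with 307 reads in AFT024 exosomes against 1290 in BFC012 exosomes, at 0.416 (0.366 to 0.471), and Psmc2, with 597 against 2184, at 0.478 (0.436 to 0.523). Psmd6 at 0.513 (0.456 to 0.577), Psmd2 at 0.590 (0.561 to 0.621) and Psmd9 at 0.632 (0.542 to 0.734) came next. Among the activators, Psme1 was at 1.04 (0.865 to 1.25), Psme3 at 1.17 (1.05 to 1.29) and Psme4 at 0.744 (0.677 to 0.816). Of the 43 genes with an FPKM ratio, directions held under all 4 scalings for 13 higher and 12 lower in AFT024 exosomes, and for the other 18 they depended on the scaling. These counts have no share of all genes beside them, since it was not calculated. Psmb10, Psme2, Psmb3, Psmb4, Psmb5, Psmb7, Psmd4 and Psmc5 were among the 13, and Psmg2, Psmc2, Psmd2, Psmd6 and Psmd9 among the 12, while Psmb6, Psmb11 and Psme3 were among the 18. Transcript length moved with this comparison: the core subunits have a median annotated length of 1120 nt, the cap subunits 1591 nt and all genes kept with a length 2782 nt, and the log2 ratio had a Spearman rho of -0.34 with log2 length over the 45 genes and of -0.12 over 11986 genes. The part of length in the result was not tested.

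**Figure D4:**
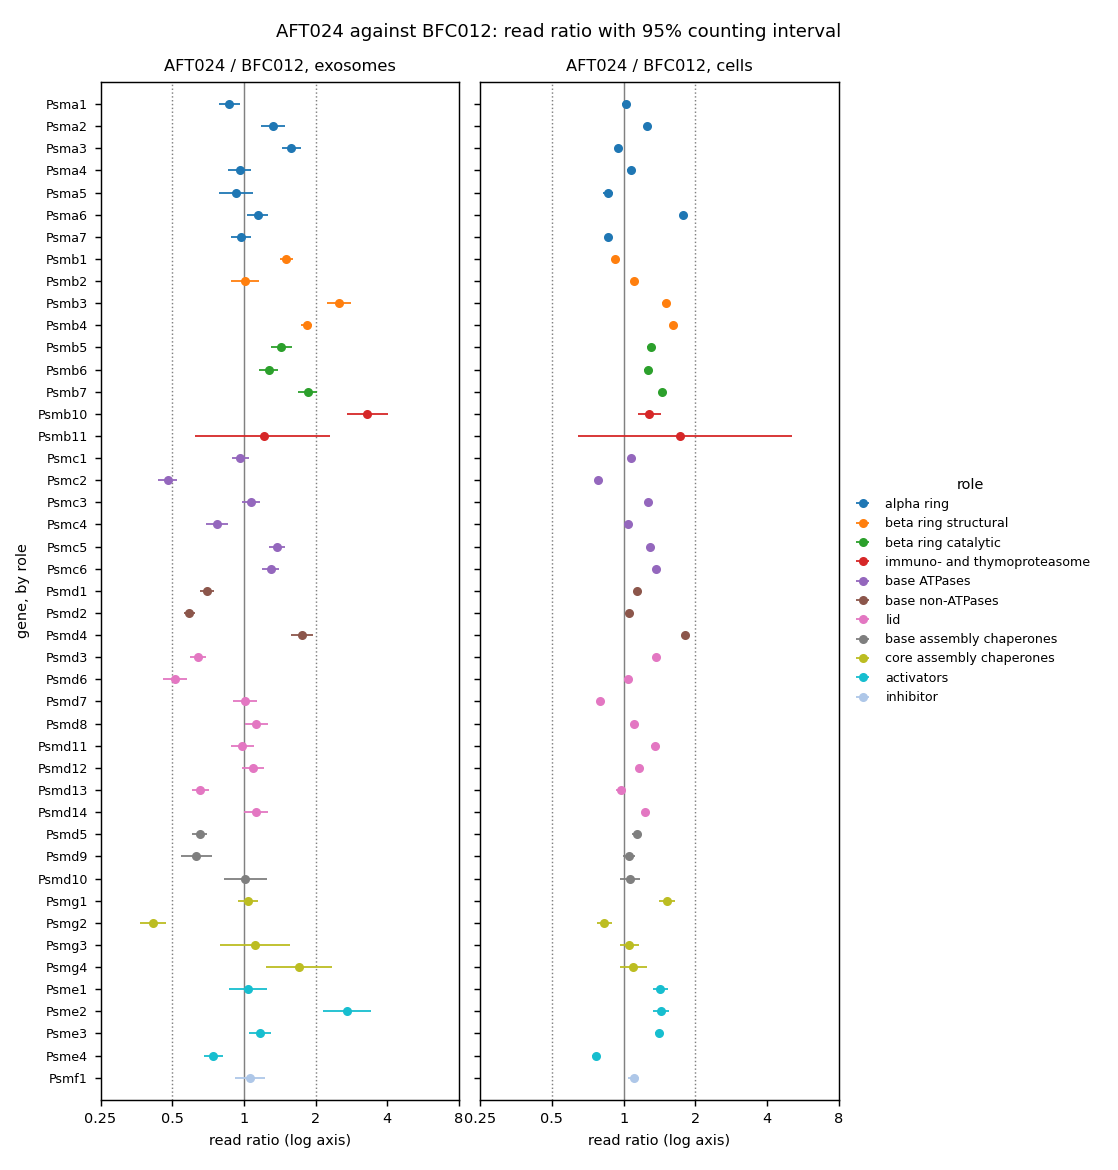
Read ratio of AFT024 against BFC012 (horizontal log axis; solid line at 1, dotted lines at 0.5 and 2) for the 45 proteasome genes kept, in exosomes (left) and in cells (right), with 95% counting intervals; each group is 1 merged value. In cells every point lies between 0.763 and 1.81, while in exosomes the points run between 0.416 (Psmg2) and 3.30 (Psmb10).

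The size of a difference was not always the same in FPKM and in scaled reads. Psma3 was higher in AFT024 exosomes than in BFC012 exosomes in both, at 1.58 (1.44 to 1.73) in scaled reads and 2.97 in FPKM, with 147 FPKM against 49.6 FPKM. Psmd11, a lid subunit, had 6465 reads in AFT024 cells against 4435 in BFC012 cells, a ratio of 1.36 (1.31 to 1.41), and 126 FPKM against 41.1 FPKM, so that it is the 1 gene above 2-fold in the FPKM of cells.

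Genes that work with the proteasome were followed as lists, read as counts beside the shares of all genes given above. Their ratios are of scaled reads. Of 15 partners and regulators kept, 5 were at least 2-fold lower and 2 at least 2-fold higher in exosomes in each line, with median ratios of 0.739 in AFT024 and 0.754 in BFC012. The 2 higher genes were Ddi2, the protease that activates Nfe2l1, at 5.10 (4.82 to 5.39) in AFT024 and 6.41 (6.12 to 6.73) in BFC012, and Nfe2l1 itself at 3.77 (3.65 to 3.89) and 2.11 (2.03 to 2.20). Nfe2l2 was at 0.368 (0.326 to 0.414) in AFT024 and 0.495 (0.450 to 0.544) in BFC012. Lowest by the mean log2 ratio of both lines were the proteasome deubiquitinase Usp14, at 0.186 (0.161 to 0.213) in AFT024 and 0.236 (0.217 to 0.257) in BFC012, and Shfm1, a small lid subunit without a Psm symbol, at 0.472 (0.423 to 0.525) and 0.261 (0.239 to 0.285). Nfe2l1 was also higher in AFT024 exosomes than in BFC012 exosomes, with 6482 reads against 4315 and a ratio of 2.63 (2.53 to 2.73), and higher in AFT024 cells than in BFC012 cells at 1.47 (1.43 to 1.52). Pomp, the core maturation chaperone, was at 0.918 (0.857 to 0.983) in AFT024 exosomes against cells and 0.733 (0.690 to 0.778) in BFC012.

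Genes that place ubiquitin on substrates also tended to lie below 1. Of 24 ubiquitin-activating and -conjugating enzymes kept, 9 were at least 2-fold lower in exosomes of each line, and 3 in AFT024 and 4 in BFC012 at least 2-fold higher, with medians of 0.532 in AFT024 and 0.574 in BFC012. Ube2l6, the interferon-inducible enzyme that conjugates ISG15, was highest at 5.71 (4.63 to 7.04) in AFT024 and 9.03 (7.03 to 11.7) in BFC012, followed by Ube2z at 2.66 (2.58 to 2.75) and 3.49 (3.39 to 3.59). Lowest by the mean log2 ratio of both lines were Uba6, an alternative activating enzyme, at 0.138 (0.103 to 0.181) and 0.0980 (0.0769 to 0.123), and Ube2t, an enzyme of DNA repair, at 0.127 (0.0763 to 0.200) and 0.159 (0.103 to 0.235). Among the genes that encode ubiquitin, Rps27a, a fusion of ubiquitin and a ribosomal protein, was at 6.72 (6.57 to 6.86) in AFT024 and 2.85 (2.79 to 2.92) in BFC012, while the polyubiquitin gene Ubb was at 0.363 in AFT024 and 0.483 (0.447 to 0.521) in BFC012. Both genes have near-identical copies in the genome between which reads can be split, and the values are uncertain for that reason.

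Shuttle receptors, which carry ubiquitinated proteins to the cap, had median ratios of 0.577 in AFT024 and 0.917 in BFC012 over 5 genes. Ubqln2 was highest in both lines, at 2.66 (2.49 to 2.84) and 2.79 (2.62 to 2.98). The lowest was Ubqln1 in AFT024, at 0.353 (0.322 to 0.386), and Rad23b in BFC012, at 0.639 (0.616 to 0.662), with Ubqln1 at 0.917 (0.870 to 0.966) in BFC012 and Rad23b at 0.480 (0.453 to 0.508) in AFT024. The p97 segregase genes, which extract proteins for degradation, had medians of 0.683 in AFT024 and 0.959 in BFC012 over 8 genes, with Nploc4 at 2.60 (2.51 to 2.69) and 3.38 (3.28 to 3.48) and Nsfl1c at 0.216 (0.187 to 0.249) and 0.269 (0.243 to 0.297). Of the 10 genes of class I antigen presentation, which uses proteasome products, 4 were at least 2-fold lower in exosomes of each line and 1, the regulator Nlrc5, higher at 3.25 (2.38 to 4.39) in AFT024 and 4.21 (2.82 to 6.34) in BFC012. In FPKM, Nlrc5 had 0.472 in AFT024 exosomes against 0.560 in AFT024 cells, and 0.301 in BFC012 exosomes against 0.149 in BFC012 cells. Its direction in AFT024 thus depends on the scaling. B2m, the light chain of class I molecules, was at 0.236 (0.210 to 0.264) and 0.133 (0.116 to 0.153).

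The COP9 signalosome and eIF3, complexes whose subunits share folds with the lid, lay closer to the median of all genes than the core and cap did, a difference described and not tested. The COP9 signalosome had medians of 0.741 in AFT024 and 0.805 in BFC012 over 9 genes, with Cops8 at 2.38 (2.27 to 2.50) and 4.73 (4.54 to 4.92) and Cops2 at 0.403 (0.373 to 0.435) and 0.337 (0.317 to 0.358). In FPKM the direction of Cops8 turned in AFT024, with 122 in exosomes against 193 in cells, and not in BFC012, with 247 against 151. The translation factor eIF3 had medians of 0.693 and 0.769 over 13 genes, with 3 at least 2-fold lower and 1 higher in AFT024 and 1 lower in BFC012. The chaperonin TRiC, another barrel-shaped complex, had medians of 0.566 and 0.894 over 8 genes, with Cct8 at 0.257 (0.243 to 0.271) and 0.337 (0.324 to 0.350). Its genes went both ways, with Cct4 at 1.26 (1.22 to 1.30) and 2.51 (2.45 to 2.57). In FPKM, Cct4 was lower in AFT024 exosomes than in AFT024 cells, at 108 against 230. It was higher in BFC012 exosomes than in BFC012 cells, at 265 against 214. The intervals lay above 1 for 2 TRiC genes in AFT024 and 4 in BFC012, and below 1 for 6 and 4. The 31 core and cap subunits together had medians of 0.455 in AFT024 and 0.495 in BFC012, with 19 and 16 at least 2-fold lower and 0 at least 2-fold higher in either line.

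**Figure D5:**
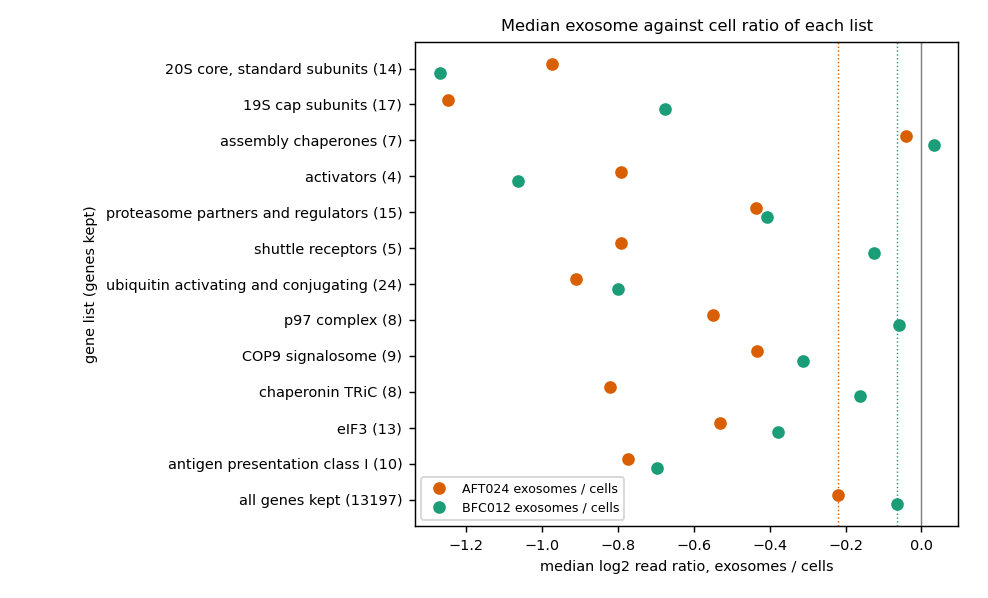
Median log2 read ratio of exosomes against cells (horizontal axis) for lists of genes (rows, with the number kept) in AFT024 (orange) and BFC012 (green), with dotted lines at the median of all genes kept. The core subunits have the lowest median in BFC012 and the cap subunits the lowest in AFT024, while the assembly chaperones lie nearest 0 in both lines.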

How the data were processed

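PolyA RNA of exosomes and cells was measured in 4 groups. Per the labels' protocols, RNA was extracted with Trizol, selected with oligo-dT and sequenced on a HiSeq instrument; TopHat, Cufflinks and Bowtie and the build mm10 (GRCm38) are listed, without role or version, in the submitters' processing notes. Which tool counted reads, with which strand setting and annotation, is not given in the sources used here. In the deposited files, a table of all groups holds FPKM, and the deposited pairwise tables hold read counts normalized by the authors with pairwise size factors; other columns hold the authors' log2 ratios and p-values, which were not used, nor were the small RNA tables.

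Whole read counts were recovered from the deposited normalized reads as multiples of the step between low values of a column; 100% of values were whole within 0.01, and a group's counts were equal in both tables that hold it. Counts were scaled by median-of-ratios size factors over the 4 groups; 0.5 was added to scaled reads for log2 ratios and for the 2-fold calls. Genes with 1 RPM in at least 1 group were kept. Intervals are exact (Clopper-Pearson, 95%) and cover counting error only, since reads are not independent molecules. With 1 merged value per group no test was made. Coordinates and exon overlaps are from GENCODE M21. The procedure was run on simulated counts in which few genes were changed, as many up as down. Intervals were checked there with library totals in place of size factors. Far more genes passed 2-fold in the data, so the simulation cannot show which scaling is right. Python 3.11.15, pandas 2.3.3 and scipy 1.17.1 were used.

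Proteasome genes, lists and rules were chosen with earlier results of these data known. All genes were counted by role; full values are given for the 5 highest and 5 lowest ratios of each comparison, for Psmb5 to Psmb11, for the activators and for genes listed at 0 FPKM despite 20 reads or more. For other lists the 2 highest and 2 lowest were eligible by the mean log2 ratio of both lines; Pomp, B2m, Nfe2l2, Ubqln1, Cd34, Psmb1, Psmc5, Psmd3, Psmd14, Psma3 and Psmd11 were added after their values were seen. Alternatives covered the scaling, the filter, the added constant, FPKM in place of reads and the fold limit, and 3 were added after seeing the data: protein-coding genes only, genes with a mean of 50 RPM or more, and genes without exon overlap. Some listed genes are not reported here. Of the value columns, 0 were left unassigned.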

Additional observations from a re-analysis of the deposited data

Results flagged for a closer look

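The interval of the exosome against cell ratio lay on opposite sides of 1 in the 2 lines for Psmb1 and Psmb10, and the difference was not tested. Psmb1, a structural beta subunit, had a ratio of 1.10 (95% interval 1.04 to 1.16) in AFT024, with 1774 reads in exosomes and 9411 in cells, and of 0.670 (0.638 to 0.703) in BFC012, with 2059 and 9550 reads. Its AFT024 ratio was 0.821 when scaled by library total and 0.429 in FPKM. Psmb10 had a ratio of 2.09 in AFT024 and of 0.812 in BFC012, and its AFT024 ratio was 1.56 when scaled by library total and 0.814 in FPKM.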

How the results depend on the processing

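No paired analysis was possible because the tables hold 1 merged value per group, and leaving out a replicate could not be run for the same reason. Of 140 alternative values of 12 results, 104 kept their direction and stayed within 1.5 times (counts) or within the spread used for medians. Genes at least 2-fold higher in AFT024 exosomes than in cells were 3, and 1 by library total, 0 in FPKM plus 1 or plus 0.1, 1 in FPKM plus 1 relative to the median gene and 1 among genes of 50 RPM or more. Those at least 2-fold lower were 21, and 31 by library total, 17 by upper quartile, 37 in FPKM plus 1 or 0.1, and 28 in FPKM plus 1 relative to the median gene. In FPKM the median log2 ratio of all genes was itself -1.11 with 1 added and -1.46 with 0.1 added. The share of all genes at least 2-fold lower in FPKM was not calculated for either line. In BFC012 the higher were 4, and 2 by library total, 0 in FPKM plus 1 or 0.1, 3 in FPKM plus 1 relative to the median gene and 2 at 50 RPM. The lower in BFC012 were 19, and 29 by library total, 37 in FPKM plus 1 or 0.1 and 22 in FPKM plus 1 relative to the median gene. There the median log2 ratio of all genes in FPKM was -0.80 with 1 added and -1.02 with 0.1 added. The median log2 ratio relative to all genes was -0.76 in AFT024 and -1.12 in FPKM plus 1 (also relative to the median gene); in BFC012 it was -0.68, and -1.05 in FPKM plus 1 (also relative to the median gene), -0.85 in FPKM plus 0.1 and -0.96 at 50 RPM. For AFT024 against BFC012 cells, 0 higher became 1 in each FPKM setting and 6 at a 1.5-fold limit, and 0 lower became 1 with genes of 1 read or more. For AFT024 against BFC012 exosomes, 3 higher became 5 by upper quartile, 9 at 1.5-fold and 1 at 50 RPM, and 2 lower became 1 by upper quartile, 4 with genes of 1 read or more, 4 in FPKM plus 1, 6 in FPKM plus 0.1, 8 at 1.5-fold and 1 at 50 RPM. Their median relative to all genes, 0.14, reversed to -0.041 in FPKM plus 1, also relative to the median gene; the cause was not tested. Among genes of 50 RPM or more, 20 of 37 proteasome genes were at least 2-fold lower in AFT024 exosomes, against 27.5% of all genes, and 17 of 37 in BFC012, against 23.1%. Depth limits Psmb8, Psmb9 and Psmb11, which had 26 reads or fewer in every group.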
